A study of Mus musculus with 5 samples.

Results

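This report compares mouse kidney nuclei outside the proximal tubule between 2 droplet methods, 10x Chromium and DroNc-seq, label by label. Members were all barcodes of both libraries in the healthy table whose deposited cell type label was neither of the 2 proximal tubule labels. They numbered 2543 of the 17542 barcodes of the series, 1379 from 10x and 1164 from DroNc-seq. Genes were compared within the 8 labels that held 50 or more nuclei in both libraries, which left 1314 and 858 nuclei, and log2 ratios were then averaged over labels.

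The study profiled adult mouse kidney with 4 healthy libraries (Drop-seq of dissociated cells, and sNucDrop-seq, DroNc-seq and 10x of isolated nuclei) and 1 10x nucleus library taken 14 days after unilateral ureteral obstruction (UUO). Both libraries compared here came from healthy, unoperated kidney with nuclei released by Dounce homogenisation in a nuclear lysis buffer. The protocol names C57BL/6 for the kidney that was dissociated into cells, and no separate strain, age, sex or number of mice is given for the nuclei. No transgene, deletion or treatment is named for either group. sNucDrop-seq nuclei, the other healthy nucleus library, are quoted beside the comparison as a reading of the same labels by a further method.

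Each method was represented by 1 library, so no test was possible. Method, animal, preparation and sequencing cannot be told apart. All intervals below are 95% intervals that cover counting error only.

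The kidney tubule is a chain of epithelial segments that reclaim salt, water and nutrients from the filtrate of the glomerulus, whose filter is built by podocytes. After the proximal tubule come the loop of Henle, the distal convoluted tubule, the connecting tubule and the collecting duct, where principal cells carry water and sodium channels and intercalated cells secrete acid or base. A nucleus library reads mostly unspliced and nuclear RNA, together with RNA that was free in the suspension when droplets formed. DroNc-seq and 10x both barcode single nuclei in oil droplets and count molecules by unique molecular identifier (UMI).

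The nuclei outside the proximal tubule carried 1759530 UMIs in 10x and 2551649 in DroNc-seq, with a median of 1064 and 1652.5 UMIs per nucleus. Malat1, an abundant nuclear noncoding RNA, took 8.84% of the UMIs in 10x and 15.1% in DroNc-seq, and mitochondrial transcripts 0.0417% and 0.119%. Mitochondrial ribosomal RNAs, which 10x did not list, held 921 of the 1033 CPM of mitochondrial transcripts in DroNc-seq (CPM: a label's counts scaled to 1000000 UMIs, averaged over labels). Of 7 mitochondrial genes listed in both and measured with the labels summed, 5 were at least 2-fold higher in 10x and 2 at least 2-fold lower. Among all genes in these sums, 13.7% were higher and 16.6% lower. No barcode was shared between the libraries, whose barcodes differ in length (16 and 12 bases). Of 4 Y-linked genes the summed level was 3.50 CPM in 10x and 7.64 CPM in DroNc-seq, against 498 CPM in sNucDrop-seq. Xist, the RNA of the inactive X chromosome, stood at 1173, 1147 and 0 CPM in the same order, so 10x and DroNc-seq were alike in these genes and sNucDrop-seq was not.

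The 2 libraries held the labels in different proportions. The ascending limb made up 39.4% of the 10x nuclei outside the proximal tubule (543 nuclei, Clopper-Pearson interval 36.8% to 42.0%) and 21.0% of those of DroNc-seq (245 nuclei, 18.7% to 23.5%). Principal cells took 8.41% in 10x (116 nuclei) and 4.30% in DroNc-seq (50 nuclei, the smallest number that entered the comparison), but 4.91% and 4.76% of barcodes with 1000 or more UMIs. Cells outside the tubule went the other way. Endothelium took 3.34% (46 nuclei) and 9.11% (106 nuclei), the label MC 1.16% (16) and 12.5% (146), and macrophages 0.218% (3) and 4.64% (54). These last 3 labels had fewer than 50 nuclei in 10x and were not compared gene by gene. Podocytes (53 and 78 nuclei), descending limb (119 and 92), distal convoluted tubule (185 and 133), connecting tubule (139 and 117), type A intercalated cells (79 and 60) and type B intercalated cells (80 and 83) completed the 8 labels. Shares depend on which barcodes were kept: the shallowest nucleus outside the proximal tubule had 359 UMIs in 10x and 716 in DroNc-seq.

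**Figure D1:**
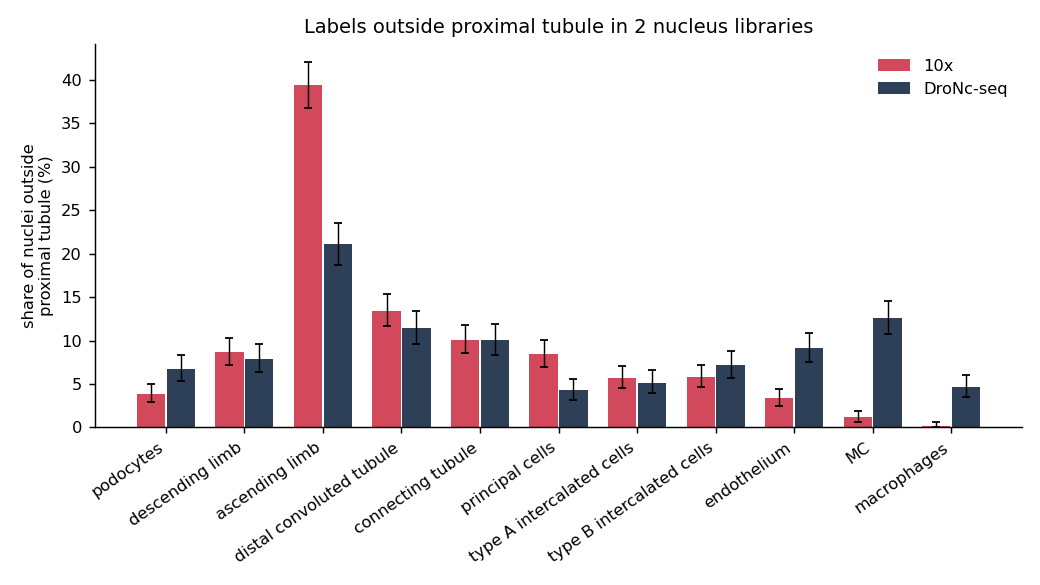
Share (%) of nuclei outside the proximal tubule that carry each deposited label in 10x (red) and DroNc-seq (dark blue), with 95% Clopper-Pearson intervals that cover counting error only. Ascending limb stands at 39.4% and 21.0%, while endothelium, MC and macrophages are lower in 10x.

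The labels were checked against their markers in each library. In 7 of the 8 labels, between 2 and 5 of the label's own marker genes were among the 10 genes that stood out most against the other labels, in either library. The label for the descending limb did not meet this in DroNc-seq. There, 0 of its markers were among the 10 leading genes, which began with Tnc, Sorcs3 and Cp, whereas 4 were in 10x, among them Slc14a2, the urea transporter of the thin limb, and Cdh13. The 8 markers of this segment summed to 2727 CPM in 10x, 255 CPM in DroNc-seq and 923 CPM in sNucDrop-seq in this label. Slc14a2 had 56 UMIs in 10x and none in DroNc-seq. Aqp1, the constitutive water channel, had 45 and 3 UMIs, and its log2 ratio of 4.45 has an interval of 2.81 to 6.78. What follows is called the descending limb by its label only, and averages without it are given where they differ.

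Over the labels, 3978 genes could be averaged (at least 20 UMIs over both sums in 4 or more labels, and listed in both libraries). Of these, 519 (13.0%) were at least 2-fold higher in 10x and 571 (14.4%) at least 2-fold lower, around a median log2 ratio of -0.02. Within single labels the share at least 2-fold higher ran from 14.9% (connecting tubule) to 19.0% (descending limb and principal cells), and the share at least 2-fold lower from 15.4% (distal convoluted tubule) to 20.4% (type B intercalated cells). Without the descending limb label the counts were 456 and 501 of 3642 genes. Among the 1770 genes measured in every label, 111 had an interval above 0 in all 8 labels, 92 had one below 0 in all 8, and 731 kept 1 direction (367 higher, 364 lower). Across the genes averaged, the mean CPM of 10x and DroNc-seq had a Spearman correlation of 0.59, that of 10x and sNucDrop-seq 0.57, and that of DroNc-seq and sNucDrop-seq 0.90. These are descriptions across genes, which are not independent replicates. Of the 12 highest and 12 lowest genes named next, 10 and 8 had an sNucDrop-seq level within 2-fold of that of DroNc-seq, and 1 and 1 within 2-fold of that of 10x. These genes were chosen for being far apart between 10x and DroNc-seq. The share of all genes within 2-fold was not computed, so these counts have no background to be read against.

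The genes higher in 10x in every label were led by genes that stood at nearly the same level in each label. Btbd2, which encodes a BTB domain protein, lay between 2207 and 3134 CPM in the 8 labels of 10x and between 6.85 and 24.9 CPM in DroNc-seq. Its mean log2 ratio was 7.57 (interval 6.94 to 8.19). No label of one library overlapped any label of the other, and sNucDrop-seq stood at 15.5 CPM. Zfp568, a zinc finger repressor gene, had 1596 to 2187 CPM in 10x and 14.4 to 55.5 CPM in DroNc-seq (mean log2 ratio 6.10, 5.65 to 6.55). Ltn1, the ubiquitin ligase that clears stalled nascent chains from ribosomes, had 2180 to 3167 CPM against 78.5 to 158 CPM (4.41, 4.20 to 4.62). For these 3 genes the level inside the 10x proximal tubule nuclei was of the same order, at 2348, 1634 and 2313 CPM.

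Cx3cr1, the fractalkine receptor of microglia and macrophages, had 692 to 850 CPM in every 10x label and 0 to 35.9 CPM in DroNc-seq (mean log2 ratio 5.60, with 1 label at 0 UMIs in DroNc-seq set at 3 UMIs). The macrophage and leukocyte list, which does not hold it, summed to 28.2 CPM in 10x and 53.4 CPM in DroNc-seq. In the GENCODE annotation of mm10 the gene model runs over chr9:119901616-120069879 on the minus strand and overlaps 9 other genes, among them Wdr48, Gorasp1, Ttc21a and Xirp1, so its reads are uncertain. Further genes of this group were the histone methyltransferase gene Kmt2d (378 against 22.9 CPM, mean log2 ratio 4.15), the transcription factor genes Klf13 (505 against 45.5 CPM, 3.47) and Foxo3 (739 against 89.0 CPM, 3.09), the nuclear receptor gene Ppard (344 against 40.2 CPM, 3.37) and the noncoding Lncpint (535 against 57.8 CPM, 3.27). Sgcz, a sarcoglycan gene, had 535 against 77.7 CPM (2.97), and Epb41l1, of the band 4.1 family, 403 against 76.1 CPM (2.54).

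An unnamed gene model, Gm26917, was further apart than any of these and was chosen after its values were seen. It lies at chr17:39843013-39846341 (mm10, plus strand) and is annotated as a lincRNA. It took 4.23% of all 10x UMIs outside the proximal tubule and 0.000862% of those of DroNc-seq. In the 8 labels it ran from 32611 to 47227 CPM in 10x and from 0 to 18.5 CPM in DroNc-seq. At least 1 UMI of it was present in 1313 of 1314 10x nuclei and in 13 of 858 DroNc-seq nuclei, although the DroNc-seq nuclei were deeper, and the median 10x nucleus gave it 3.92% of its UMIs. Leaving it out of the totals changed the counts of genes to 579 higher and 520 lower.

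**Figure D2:**
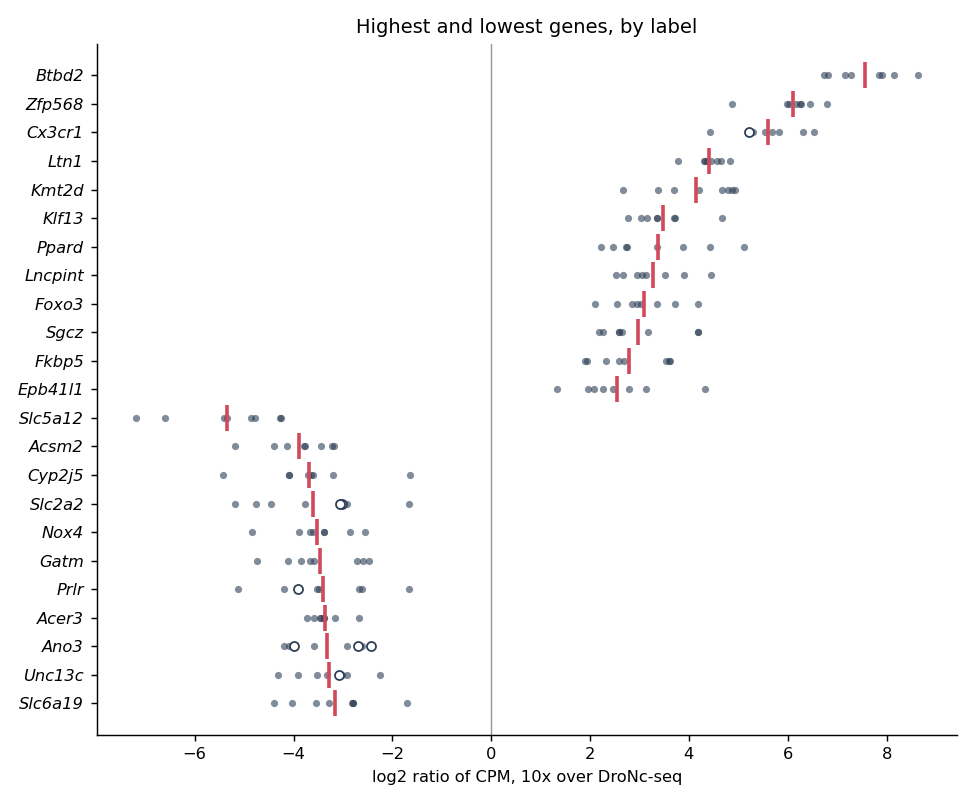
Log2 ratio of CPM, 10x over DroNc-seq, for the 12 highest and 11 of the 12 lowest genes measured in every label with an interval on 1 side of 0 in each. Points are the 8 labels, open points are sums at 0 UMIs set at 3 UMIs, and red bars are means over labels, from 7.57 for Btbd2 to -5.34 for Slc5a12.

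Genes with higher levels inside the proximal tubule were common among those lower in 10x. Of the 92 genes with an interval below 0 in every label, 42 (45.7%) stood at least 2-fold higher inside the proximal tubule than outside in both libraries, as did 10 of the 12 lowest, against 6.44% of the 1770 genes measured in every label. Of the 12, 3 (Slc5a12, Acsm2 and Gatm) are on the list of proximal tubule markers used below. Slc5a12, a sodium-coupled lactate transporter of the proximal tubule brush border, had 8.52 to 80.3 CPM in the 8 labels of 10x and 717 to 1523 CPM in DroNc-seq (mean log2 ratio -5.34, -5.90 to -4.78), with 930 CPM in sNucDrop-seq. Acsm2, a medium-chain acyl-CoA synthetase gene, had 74.8 against 1007 CPM (-3.89). Cyp2j5, a renal epoxygenase gene, had 49.7 against 538 CPM (-3.68), and Slc2a2, the basolateral glucose transporter GLUT2, 11.5 against 162 CPM (-3.60, with 2 labels at 0 in 10x). Gatm, which makes the creatine precursor guanidinoacetate, had 23.6 against 242 CPM (-3.47), and Slc6a19, the neutral amino acid transporter, 27.7 against 212 CPM (-3.17). Nox4, the renal NADPH oxidase, had 110.0 against 1117 CPM (-3.52).

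Acer3, an alkaline ceramidase gene, did not stand 2-fold higher inside the proximal tubule. It was lower by a similar amount in each label, from -3.72 in podocytes to -2.67 in type B intercalated cells (98.2 to 213 CPM against 1298 to 1721 CPM). Prlr, the prolactin receptor, had 28.5 CPM in 10x and 256 CPM in DroNc-seq (mean log2 ratio -3.40, with 1 label at 0), but 16.9 CPM in sNucDrop-seq, so here DroNc-seq stood apart. Ano3, a scramblase gene, had 9.39 against 197 CPM with 3 labels at 0 in 10x, and Unc13c, of synaptic vesicle priming, 13.4 against 148 CPM with 1. Unlike Acer3, these genes did stand at least 2-fold higher inside the proximal tubule in both libraries. The inside levels in 10x and DroNc-seq were 143 and 863 CPM for Prlr, 21.1 and 612 CPM for Ano3, and 87.6 and 416 CPM for Unc13c.

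Of the lists with at least 4 members averaged over labels, the proximal tubule list had the median furthest from 0. Of its 33 genes, 23 were measured outside the proximal tubule, and 18 of them were at least 2-fold lower in 10x and 0 at least 2-fold higher, where 14.4% of all genes were lower. Their median log2 ratio was -2.25, against -0.02 for all genes. The list summed to between 2724 CPM (distal convoluted tubule) and 9174 CPM (podocytes) in 10x, and to between 8579 and 14628 CPM in DroNc-seq. In every label 10x was below DroNc-seq, with intervals that did not meet, and sNucDrop-seq was above both, at 16549 to 27867 CPM. Podocytes were the label with the smallest gap, at 9174 and 12638 CPM.

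Inside the proximal tubule labels the list summed to 36562 CPM in 10x and 33578 CPM in DroNc-seq. The mean level outside was therefore 12.1% of that inside in 10x, 34.4% in DroNc-seq and 44.1% in sNucDrop-seq. The proximal tubule labels held 705 nuclei in 10x and 1605 in DroNc-seq, beside 1379 and 1164 nuclei outside them. Whether these numbers bear on the level outside was not tested. For 21 of the 23 genes the outside level was a smaller percentage of the inside level in 10x than in DroNc-seq, with medians of 12.4% and 36.3%. The share of all genes with a smaller percentage in 10x was not computed. Among the 3978 genes averaged, 9.88% stood at least 2-fold higher inside than outside in 10x and 6.08% in DroNc-seq. Some genes were also lower in 10x inside their own cells. The median log2 ratio inside was -0.54, with 9 of 23 genes at least 2-fold lower and 5 at least 2-fold higher. The share of all genes that far apart inside the proximal tubule was not computed, so these counts have no background to be read against. Slc5a12 stood at 197 against 4188 CPM inside the proximal tubule, and Acsm2 at 482 against 2909 CPM. Slc34a1, the phosphate transporter, showed the other pattern, with 8639 against 3905 CPM inside and 1067 against 1326 CPM outside. Lrp2, the endocytic receptor megalin, stood at 3233 against 1514 CPM inside and 277 against 535 CPM outside. Ghr, the growth hormone receptor, stood at 11795 against 4861 CPM inside and 1246 against 1487 CPM outside. Kap, an androgen-regulated kidney gene, was close in the 2 libraries (208 and 285 CPM outside) and 2846 CPM in sNucDrop-seq.

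Barcodes of high depth carried more of these transcripts. In the 8 labels, 27 of 1314 10x nuclei and 63 of 858 DroNc-seq nuclei lay above 3 times the UMI median of their own label in that library. The list stood at 9216 CPM in these nuclei against 3388 CPM in the others in 10x, and at 17967 against 8793 CPM in DroNc-seq. Without such barcodes the mean level outside was 10.8% of that inside in 10x and 28.4% in DroNc-seq, and the median log2 ratio of the list was -1.34 over 21 genes. The part of doublets or of free RNA in these levels was not tested.

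**Figure D3:**
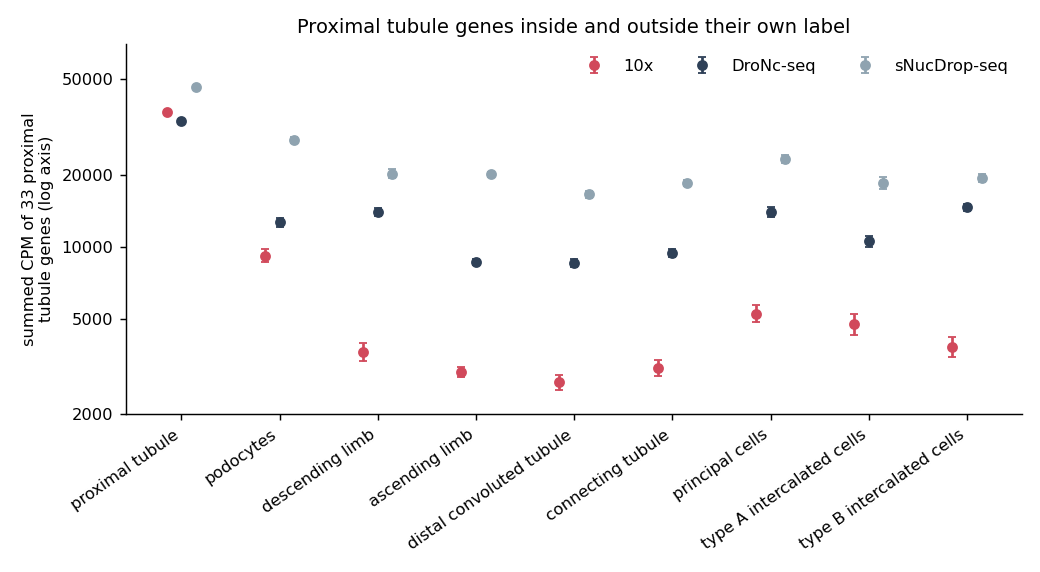
Summed level (CPM, log axis) of 33 proximal tubule genes in the proximal tubule nuclei and in the 8 other labels, for 10x (red), DroNc-seq (dark blue) and sNucDrop-seq (grey), with exact Poisson 95% intervals. The 10x points fall from 36562 CPM inside to between 2724 and 9174 CPM outside, below the DroNc-seq points in each of the 8 labels.

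Genes for splicing factors and nuclear speckle proteins were lower in 10x. Of 31 measured genes, 29 had a ratio below 0 and 14 were at least 2-fold lower (14.4% of all genes were), with a median log2 ratio of -0.91. The median was between -1.08 and -0.77 in each of the 8 labels. Pnisr, an SR-related protein gene, stood at 266 CPM in 10x, 1554 CPM in DroNc-seq and 1669 CPM in sNucDrop-seq (mean log2 ratio -2.56, -2.73 to -2.39). Prpf4b, a kinase of the spliceosome, stood at 73.2, 355 and 361 CPM (-2.37), and Hnrnpa2b1, an hnRNP gene, at 128, 449 and 506 CPM (-1.83). Srrm2, a scaffold of nuclear speckles, stood at 589, 1093 and 1259 CPM (-0.89) and Son, its partner there, at 350.0, 693 and 869 CPM (-0.98). Rbm39, the most abundant member in 10x after averaging, was closer, at 831, 1049 and 994 CPM (-0.33). Tra2b, a splicing activator, was the 1 measured member at least 2-fold higher in 10x, at 233, 94.7 and 114 CPM (1.30, 1.01 to 1.60), while its relative Tra2a was lower, at 214, 664 and 536 CPM (-1.65).

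Chaperone genes lay on the same side. All 6 measured members had ratios below 0, with a median of -0.87 (-0.49 over 5 members without the descending limb label), and 3 were at least 2-fold lower (14.4% of all genes were): Hsp90ab1 (78.7 against 224 CPM), Hsp90b1 (77.2 against 182 CPM) and Hspa5 (29.7 against 76.3 CPM). Of the nuclear noncoding RNAs, Malat1 was lower in 10x (87423 against 159078 CPM, -0.86, -0.88 to -0.85) and Neat1, the core of paraspeckles, was higher (3007 against 1545 CPM, 0.89, 0.80 to 0.97). Xist had a mean log2 ratio of 0.04 (-0.06 to 0.14).

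On the list of cell adhesion and polarity genes, which also holds growth factor and nuclear receptor genes, 17 of 20 measured members had ratios above 0 and 4 were at least 2-fold higher (13.0% of all genes were), with a median of 0.41. Among these 4 were Esrrb (427 against 105 CPM, 2.43), a nuclear receptor gene of the list, Cdh1, the epithelial cadherin (549 against 188 CPM, 1.58), and the scaffold gene Magi1 (1437 against 697 CPM, 1.04). Of the nephron transcription factors, 6 of 17 were at least 2-fold higher and 3 at least 2-fold lower (13.0% and 14.4% of all genes were), with a median of 0.51. The higher ones included Tfap2a (191 against 36.1 CPM, 2.21), Grhl2 (233 against 96.1 CPM, 1.47), Sim1 (566 against 260 CPM, 1.37), Pax2 (705 against 257 CPM, 1.24) and Mecom (3095 against 1798 CPM, 1.12). The lower ones were Lhx1 (60.4 against 174 CPM, -1.52) and the proximal tubule regulators Hnf4a (40.4 against 94.0 CPM, -1.34) and Hnf4g (64.2 against 106 CPM, -1.09). With the labels summed, 28 members of this list were measured. Of these, 6 were at least 2-fold higher and 6 at least 2-fold lower (13.7% and 16.6% of all genes were), and the median was 0.07. The median of 0.51 thus depended on which members reached the count minimum and on the averaging.

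Among genes of salt transport, 3 of 18 were at least 2-fold higher, near the 13.0% of all genes, 0 were at least 2-fold lower, and the median was 0.25. The 3 were Stk39, the kinase that activates the cotransporters (905 against 356 CPM, 1.62), Slc9a3, a sodium-proton exchanger (325 against 104 CPM, 1.49), and Nedd4l, the ubiquitin ligase of the sodium channel (1846 against 687 CPM, 1.46). The subunits of the sodium pump were split. Atp1b1, its beta subunit, was lower in 10x in every label (245 against 882 CPM, -1.82, between -2.52 and -1.29). Fxyd2, its gamma subunit, was higher in every label (420.0 against 268 CPM, 0.74). Nuclear genes of oxidative phosphorylation were near the background, with 5 of 32 at least 2-fold higher, 2 lower and a median of 0.23.

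**Figure D4:**
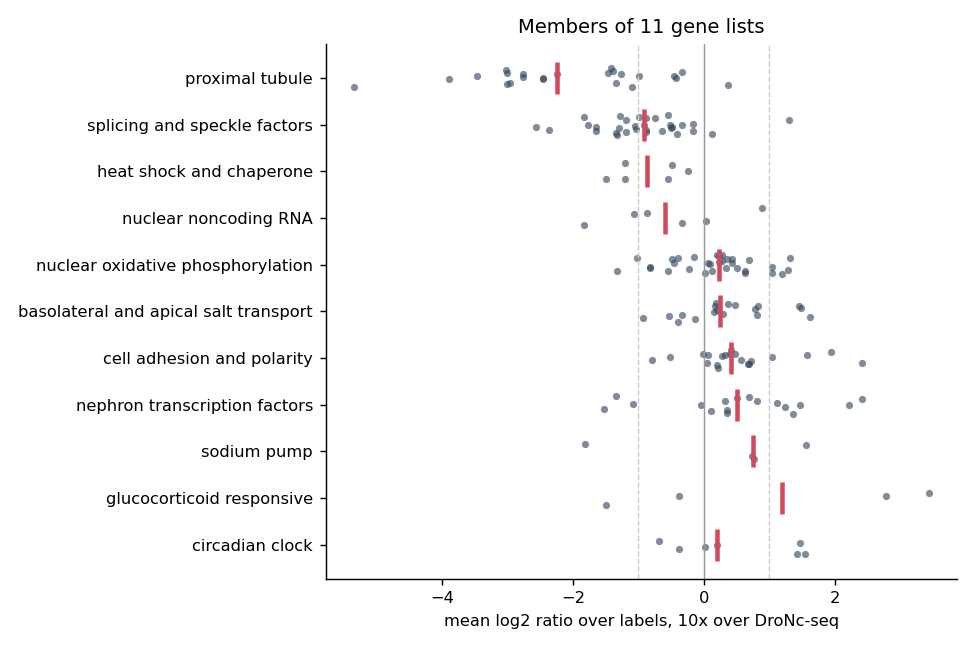
Mean log2 ratio over labels, 10x over DroNc-seq, of the measured members (points) of 11 gene lists, with list medians as red bars and dashed lines at 2-fold. The proximal tubule list is centred at -2.25 and the splicing list at -0.91, while the cell adhesion list is centred at 0.41.

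The markers of each segment were next compared inside their own label. Principal cells differed most in Aqp2 and Fxyd4 among their measured markers. Aqp2, the vasopressin-regulated water channel, stood at 4084 CPM (466 UMIs) in 10x, 532 CPM (61 UMIs) in DroNc-seq and 774 CPM in sNucDrop-seq, a log2 ratio of 2.94 (2.55 to 3.35). Fxyd4, a regulator of the sodium pump, stood at 1674, 410 and 438 CPM (2.03, 1.56 to 2.52). Hsd11b2, which shields the mineralocorticoid receptor from glucocorticoid, was lower, at 307, 820 and 892 CPM (-1.42, -2.02 to -0.84), as was Scnn1b, a subunit of the sodium channel, at 351, 802 and 396 CPM (-1.19, -1.77 to -0.64). In the other labels Aqp2 averaged 152 CPM in 10x, 26.7 CPM in DroNc-seq and 65.0 CPM in sNucDrop-seq.

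In the distal convoluted tubule, Pvalb, the calcium-binding protein parvalbumin, stood at 950 CPM in 10x, 54.4 CPM in DroNc-seq and 48.2 CPM in sNucDrop-seq (log2 ratio 4.13, 3.40 to 4.96), and at 58.5, 7.14 and 1.52 CPM in the other labels. Slc12a3, the thiazide-sensitive cotransporter that defines the segment, was closer, at 13544, 18719 and 17880 CPM (-0.47, -0.53 to -0.41), and Trpm6, its magnesium channel, at 1371, 1190 and 1360 CPM (0.20, -0.01 to 0.42). In type A intercalated cells, Kit, a receptor tyrosine kinase, stood at 1644, 344 and 591 CPM (2.26, 1.77 to 2.76), whereas Aqp6 stood at 310, 323 and 383 CPM (-0.06, -0.82 to 0.67). Atp6v1g3 was lower, at 286, 588 and 335 CPM (-1.04, -1.76 to -0.37). Among the 9 measured markers of this label, 4 had ratios above 0 and 5 below, with a median of -0.06. In type B intercalated cells the anion exchanger Slc26a4, pendrin, was modestly lower in 10x (5221, 6849 and 7872 CPM, -0.39, -0.53 to -0.26). The connecting tubule marker Calb1, calbindin, was higher (1926, 1120.0 and 1345 CPM, 0.78, 0.56 to 1.00), and Atp2b1 was lower (83.1, 178 and 191 CPM, -1.10, -2.01 to -0.27). Among the 9 measured markers of the connecting tubule, 4 had ratios above 0 and 5 below, with a median of -0.02.

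The podocyte markers summed to less in 10x. In podocytes the 14 markers summed to 44209 CPM in 10x, 77537 CPM in DroNc-seq and 45481 CPM in sNucDrop-seq, so here DroNc-seq stood above both others. Magi2, a scaffold of the slit diaphragm and the most abundant of them, stood at 31091, 57877 and 32378 CPM (-0.90, -0.95 to -0.84). Synpo, an actin-binding protein of the foot process, stood at 803, 1929 and 888 CPM (-1.26). Nphs1, nephrin, stood at 1017, 1523 and 1313 CPM (-0.58), and Wt1, a transcription factor of podocytes, at 866, 903 and 618 CPM (-0.06, -0.43 to 0.31).

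**Figure D5:**
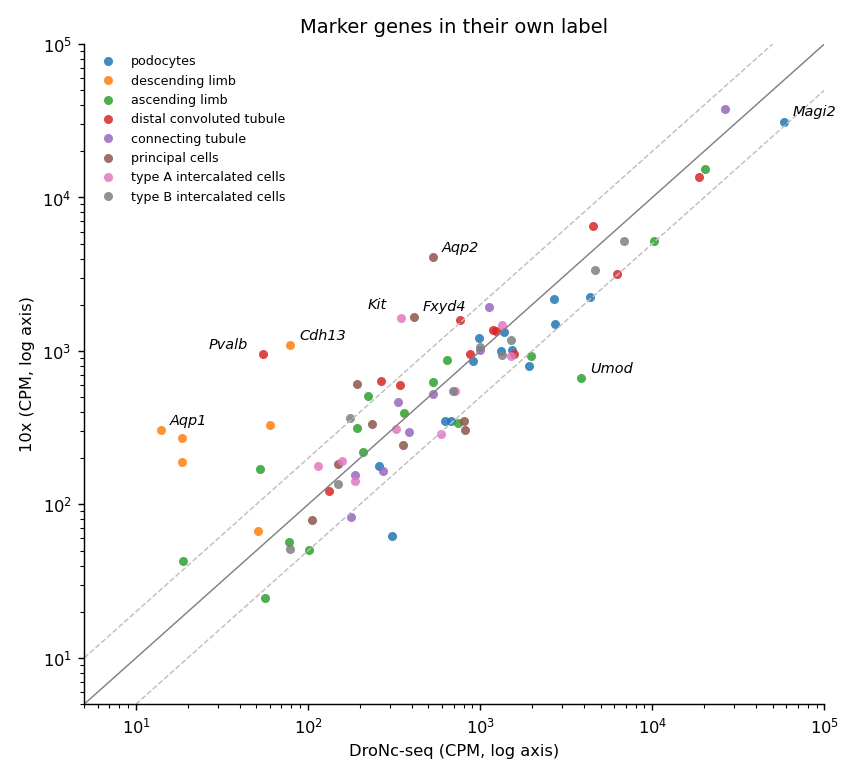
Level (CPM, log axes) of segment marker genes in their own label in DroNc-seq (horizontal) and 10x (vertical), for markers with at least 20 UMIs over both sums and a UMI in each library, coloured by label, with lines at equality and 2-fold. Aqp2 (532 and 4084 CPM), Pvalb and Kit lie above the lines and Umod (3846 and 663 CPM) below.

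Some genes differed in opposite directions between labels. Umod, uromodulin, the main urinary protein made by the thick ascending limb, had 431 UMIs (663 CPM) in the ascending limb of 10x, 2047 UMIs (3846 CPM) in that of DroNc-seq and 2518 CPM in sNucDrop-seq, a log2 ratio of -2.54 (-2.69 to -2.39). In the descending limb label the ratio was 2.28 (0.91 to 3.89), on 20 and 6 UMIs. Slc12a1, the furosemide-sensitive cotransporter of the same segment, differed far less in the ascending limb (15400 and 20114 CPM, -0.39, -0.42 to -0.35). Egf, also made there, stood at 5193 and 10210 CPM (-0.98, -1.04 to -0.91).

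Kcnq1, a potassium channel gene, was lower in 10x in podocytes (232 against 2652 CPM, -3.51, -4.14 to -2.95), the descending limb (182 against 1106 CPM) and the ascending limb (272 against 966 CPM). It was higher in the connecting tubule (1573 against 870 CPM, 0.85, 0.61 to 1.10) and in type A intercalated cells (1453 against 933 CPM). Kcnq1ot1, the noncoding RNA transcribed antisense within this gene, was listed in 10x alone, at 391 to 1696 CPM in the labels. Without a stated use of strand, reads of the pair cannot be told apart. Slc8a1, the sodium-calcium exchanger of the connecting tubule, had 37888 and 26339 CPM there (0.52, 0.48 to 0.57), but 520 and 2413 CPM in type B intercalated cells (-2.22, -2.62 to -1.83) and 898 and 213 CPM in the descending limb label (2.08, 1.58 to 2.59).

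Genes that follow glucocorticoid and the time of day also differed. Fkbp5, a chaperone induced by glucocorticoid, stood at 394 CPM in 10x, 61.6 CPM in DroNc-seq and 285 CPM in sNucDrop-seq (mean log2 ratio 2.78, 2.43 to 3.13), and it was higher in 10x in all 8 labels. Zbtb16, a zinc finger gene also induced by glucocorticoid, stood at 261, 21.4 and 64.0 CPM (3.44, 2.88 to 3.99, over 7 labels with 1 at 0 in DroNc-seq). Errfi1, an inhibitor of the EGF receptor, went the other way, at 92.0, 250.2 and 411 CPM (-1.49, -1.80 to -1.17). Only 4 of 13 members of this list reached the count minimum in enough labels. When all labels were summed, 12 members were measured, and 7 were at least 2-fold higher in 10x and 1 at least 2-fold lower (13.7% and 16.6% of 11346 genes were).

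In the same sums, clock genes went both ways: of 18 measured, 7 were at least 2-fold higher in 10x (13.7% of all genes were) and 2 at least 2-fold lower (16.6% were). The 2 lower ones were Arntl and its partner Npas2, which activate the clock. Arntl had 28 UMIs in 10x and 137 in DroNc-seq (log2 ratio -2.03, -2.67 to -1.43). Npas2 had 8 and 78 UMIs (-3.02, -4.28 to -1.97), and Clock 193 and 403 UMIs (-0.80, -1.05 to -0.55). The repressor gene Per1 had 77 and 27 UMIs (1.77, 1.13 to 2.46), Per2 125 and 69 UMIs (1.12, 0.68 to 1.57), and Rora, a nuclear receptor that drives Arntl, 2296 and 839 UMIs (1.72, 1.60 to 1.83). Higher members also included Cry1, Usp2 and Bhlhe41, with log2 ratios between 1.26 and 1.66. The ascending limb gave 650070 of the 1686801 UMIs of these sums in 10x and 532213 of 2024068 in DroNc-seq. Label by label, the median of the measured clock genes ran from 0.90 in the ascending limb (13 genes) to -0.65 in type A intercalated cells (3 genes). It was also below 0 in the connecting tubule (-0.35, 8 genes) and in principal cells (-0.41, 4 genes). The median thus did not keep 1 direction, but the members measured were not the same in every label. The time of day of collection is not given in the labels.

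The libraries also listed different genes. Over all barcodes of each library, proximal tubule nuclei included, 12422 genes had a UMI in both, 723 in 10x alone and 2515 in DroNc-seq alone. sNucDrop-seq listed 2424 of the latter and 237 of the former. Within a library a listed gene was never seen in fewer than 4 barcodes in 10x or 6 in DroNc-seq, so a gene at 0 may have been left out of that library's table, and no ratio is given for it. Kcnq1ot1 (696 CPM) and Naaladl2 (611 CPM) were the most abundant genes of the first group. In the second were the mitochondrial ribosomal RNA mt-Rnr2 (802 CPM), the noncoding RNAs Mir99ahg (544 CPM), Dleu2 (378 CPM), Firre (178 CPM) and Gas5 (87.9 CPM), and Hnrnpu (318 CPM), which encodes an RNA-binding protein of the nuclear matrix. Of genes annotated as processed transcripts, 225 were listed in DroNc-seq alone, 17 in both and 1 in 10x alone.

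Gene names were also compared between the libraries. For 25 pairs, a symbol listed in 10x alone and a symbol listed in DroNc-seq alone were joined through older names. Whether each pair is 1 gene was not tested. For the pair Gm21949 and Schip1, the GENCODE annotation held the DroNc-seq symbol Schip1 but not the 10x symbol. Rtl4 had 337 CPM in 10x and its older name Zcchc16 had 295 CPM in DroNc-seq. Cabcoco1 had 308 CPM and 1700040L02Rik 439 CPM, Dcaf1 113 CPM and Vprbp 79.9 CPM, and Flvcr1 98.2 CPM and Mfsd7b 90.8 CPM. Of 22 joined pairs that reached the count minimum, 19 (86.4%) were within 2-fold, against 69.7% of the genes listed in both libraries.

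Ratios varied with the length of the gene among the genes averaged. In 5 groups of about equal size from short to long gene span, the median log2 ratio was -0.37, -0.16, -0.03, 0.14 and 0.21. The longest minus the shortest group, 0.58 here, was 0.24 with 1 sum over all nuclei and 0.0032 over 12257 genes with a count minimum of 1. The shortest group (up to 28.1 kb) held 28.0% of genes at least 2-fold lower in 10x and the longest (above 147 kb) 7.10%. The medians of the shortest group were below those of the longest in each of the 8 labels. Genes per nucleus were compared after each nucleus was thinned to 500 UMIs, which left out 66 10x nuclei. The median was 364 genes in 10x and 337 in DroNc-seq in podocytes, 368.5 and 356 in the ascending limb, 362 and 344 in the distal convoluted tubule and 362 and 362 in the connecting tubule. On average over labels 10x had 10.6 more genes per nucleus, and it was higher in 7 of 8 labels. With Malat1 removed before thinning, 10x had fewer, by a mean of -16.75 genes, and was higher in 1 label, the podocytes. Unthinned, the median over all nuclei outside the proximal tubule was 694 genes in 10x and 966.5 in DroNc-seq.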

How the data were processed

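The authors deposited a table of UMI counts per gene and barcode for the 4 healthy libraries, with a cell type label for every barcode. Reads were aligned with STAR 2.5.3a to mm10, per the submitters' processing notes. How introns, strand and gene filters were handled is not stated in the labels or headers read here. Barcodes were assigned to libraries by their prefix and to cell types by the deposited label. Counts of each label and library were summed and divided by their total UMIs to give CPM. Genes listed in both libraries with 20 or more UMIs over the 2 sums of a label were measured there. A sum of 0 was set at 3 UMIs in a ratio, which makes it a bound. Log2 ratios (10x over DroNc-seq) were averaged over labels where a gene was measured in at least 4 of 8. Intervals of single ratios are exact conditional binomial intervals, and those of means are Poisson approximations. The precision follows from the sums, which held 83950 to 650070 UMIs per label in 10x and 114675 to 532213 in DroNc-seq. Named genes were the 12 highest and 12 lowest means whose interval was on 1 side of 0 in every label (mitochondrial, ribosomal and unnamed models left out), the 3 strongest per label and direction, the most abundant members of each list and those at least 4-fold apart, markers in their own label, and the 6 of widest range. Members, lists and rules were chosen with earlier results of these data known. There was 1 library per method and so no test and no p-value. No doublets were called, and barcodes above 3 times the median UMIs of their label and library were left out as an alternative. Gene positions and lengths come from GENCODE M21 (mm10), which gave a length for 99.2% of the genes averaged. Other symbols were joined through older names. The arithmetic was tested on simulated counts. Python 3.11.15, numpy 2.4.6, scipy 1.17.1, pandas 2.3.3 and edgeR 4.0.16 (TMM scaling only) were used. Alternatives covered scaling, count minimum, averaging, label and barcode minimum and the treatment of zeros. Values of some genes are not reported here.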

Additional observations from a re-analysis of the deposited data

Results flagged for a closer look

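The following genes had intervals on opposite sides of 0 in 2 labels, so the 10x nuclei were higher than the DroNc-seq nuclei in one label and lower in another. With 1 library per method, the difference between labels was not tested. Umod had a log2 ratio of 2.28 in the descending limb label and -2.54 in the ascending limb. C2cd3, a centriole gene, had 1.22 in the descending limb label (24 and 15 UMIs) and -3.52 in type A intercalated cells (1 and 19 UMIs, interval -8.89 to -0.86). Kcnq1 had 0.85 in the connecting tubule and -3.51 in podocytes. Slc8a1 had 2.08 in the descending limb label and -2.22 in type B intercalated cells. For 3 of these genes the higher ratio came from the descending limb label, in which DroNc-seq had 0 of the segment's markers among its 10 leading genes.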

How the results depend on the processing

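No paired analysis was possible because each method had 1 library. For the same reason no library could be left out. Of the alternatives, 3 were chosen after seeing the data: leaving out the descending limb label, leaving Gm26917 out of the totals, and adding endothelium as a further label. Neither the scaling (TMM, median-of-ratios, totals over genes listed in both, totals without Malat1 and mitochondrial and ribosomal protein genes, or without Gm26917) nor the averaging of CPM over nuclei moved the counts of genes by 1.5 times. The cause of the changes below was not tested, except where fewer or more genes or labels entered.

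With a count minimum of 1, 12341 genes were averaged, 1565 at least 2-fold higher and 1039 lower, with a median of all genes of 0.15. List medians were then 0.21 for ribosomal proteins, 0.18 for fasting and PPAR genes (-0.53 as reported), 0.36 for hypoxia genes (-0.42), 0.30 for principal cell, -1.48 for proximal tubule, 0.12 for sodium pump and 0.21 for thick ascending limb, and the longest minus the shortest gene group was 0.0032 (0.58 as reported). With a count minimum of 100, 528 genes remained, 73 higher and 63 lower, with medians of 0.91 for nephron transcription factors, 0.036 for nuclear noncoding RNA (-0.60) and 0.52 for sodium pump. Totals without mitochondrial and ribosomal protein genes and Malat1 moved the median of all genes to -0.14. With 1 sum over all nuclei outside the proximal tubule, 1517 of 11791 genes were higher and 2134 lower, the median of all genes was -0.12, and medians were 0.48 for distal convoluted tubule, -0.10 for fasting and PPAR, 0.11 for hypoxia, -0.95 for podocyte, 0.070 for principal cell, -1.55 for proximal tubule, 0.34 for sodium pump and 0.60 for thick ascending limb. The ratio of mean CPM gave 0.19 for distal convoluted tubule (-0.04 as reported).

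In the 3 labels with 100 or more nuclei, medians were 0.13 for ribosomal proteins, 0.33 for distal convoluted tubule, 0.24 for hypoxia and 0.35 for principal cell. With barcodes of 1000 or more UMIs (5 labels), they were 0.24 for distal convoluted tubule, -1.90 for proximal tubule and 0.52 for sodium pump. Shares of 10x nuclei were then 5.17% for podocytes, 16.7% for distal convoluted tubule, 13.0% for connecting tubule, 4.91% for principal cells (4.76% in DroNc-seq), 4.24% for type A and 7.43% for type B intercalated cells, 1.99% for endothelium and 0.531% for MC, and of DroNc-seq nuclei 6.89% for endothelium. Without barcodes above 3 medians (7 labels), the proximal tubule median was -1.34 and its outside level 10.8% (10x) and 28.4% (DroNc-seq) of the inside level. Without the descending limb label, medians were 0.77 for ribosomal proteins, -0.49 for chaperones and -0.40 for principal cell (3 genes, against 0.82 over 5). With endothelium added, ribosomal proteins had 0.21. Genes per nucleus were 18.4 more in 10x at 1000 UMIs and -16.75 (fewer) without Malat1. Of 1716 values for 113 genes over 16 alternatives, 1534 stayed within counting error. None of the genes at least 2-fold apart as reported changed sign, while 18 values of the others moved past 0 and beyond counting error. Values that passed 0 within counting error were not counted apart. Among the means over labels printed above, Fkbp5 (2.18), Epb41l1 (1.85) and Cyp2j5 (-4.37) moved by over 1.5 times in the 3 labels with 100 or more nuclei, Slc6a19 (-3.93) with barcodes of 1000 or more UMIs, and Zbtb16 (4.08) without barcodes above 3 medians. Gm26917 moved from 12.32 to 13.31 in the 3 labels, and Ano3 from -3.32 to -4.14 with 1 sum and to -4.16 with 0.5 added to both sums.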
